A study of Mus musculus with 16 samples.

Results

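Of the 21923 genes in the deposited table, 10 code for the cytosolic heat shock proteins of muscle that are described here. The rule names them by symbol and uses no measured value, though it was written with earlier results of these data known. Hspb1, Hspb6, Hspb7, Hspb8, and Cryab are 5 small heat shock proteins. Hspa1a, Hspa1b, Dnajb1, Hsph1, and Bag3 are 5 genes of the Hsp70 system. All 10 passed the filter on low counts in all 6 comparisons between groups.

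Small heat shock proteins bind unfolding proteins without using ATP, and in muscle they sit on desmin, actin, filamin, and titin at the Z-disc, the plate to which the thin filaments are anchored. Hsp70 (Hspa1a and Hspa1b) refolds proteins in an ATP-driven cycle, Dnajb1 (an Hsp40) hands it the client, and Hsph1 (Hsp105, of the Hsp110 family) and Bag3 exchange its nucleotide. Bag3 also joins Hsp70 to Hspb8 and passes worn Z-disc proteins to selective autophagy. Many genes of this family, though not all, are switched on by heat shock factor 1 (Hsf1), which binds repeats of the letters GAA in their promoters.

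Gastrocnemius, a muscle of the calf, was taken on day 30 from 16 adult mice, and poly(A) RNA of each mouse was sequenced as 1 library. The 4 NOR mice had no tumor and were given PBS in place of tumor cells. The 4 CAC mice carried tumors under the skin, the 4 AM mice carried the same tumors and received amiloride at 2 mg/kg a day from day 9, and the 4 KD mice carried tumors grown from cells in which shRNAs had knocked down Rab27a and Rab27b. NOR, CAC, and KD mice all received daily PBS over the days on which AM mice received amiloride. The protocol names mice of both sexes for BALB/c and males for C57BL/6, the study's methods name males for both, and no sex is given for a single library. In each group, replicates 1 and 2 are labelled C57BL/6 and replicates 3 and 4 BALB/c. With a tumor, the former carried LLC, a Lewis lung carcinoma line, and the latter CT26, a colon carcinoma line, so that the labelled strain and the tumor line change together. The study asked whether amiloride, which lowers the release of exosomes, alters the wasting of muscle in tumor-bearing mice, and KD served as a second way to lower that release.

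The libraries held between 35913190 and 61032708 reads counted on genes, and the lowest count of a heat shock gene in a library was 520. The 8 markers of skeletal muscle summed to between 35627.9 and 111521.6 CPM (counts relative to the library total, with TMM scaling to set the libraries to a common level). The strain labels did not separate the libraries. Of 13210 genes with a mean of at least 1 CPM, 0 (0.0%) were higher and 1 (0.00757%) was lower in all 8 libraries labelled BALB/c than in all 8 labelled C57BL/6. CAC replicate 4, AM replicates 1 and 3, and KD replicate 1 stood apart from the others in Nnt, a mitochondrial transhydrogenase that is deleted in part in the C57BL/6J substrain, and in Trim12a. Nnt was 44.0 to 112.4 CPM in these 4 and 5.73 to 21.5 CPM in the other 12, and Trim12a was 0.0 to 0.759 CPM in the 4 and 5.28 to 21.2 CPM in the other 12. These 4 carry both strain labels, so strain is given below only as labelled, and the main results of each comparison that uses these libraries are also given without them.

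The promoters of 4 members are shown so that their letters can be compared, Hspa1a, Hspa1b, and Hspb1 with a GAA motif before the start and Hspb7 with none. They were chosen after the values were seen. Dnajb1, which was high in NOR replicates 3 and 4 as described below, holds none. Hspb6, which was not high there, has one before its second start. The relation of the motif to the levels was not tested. The sequences are the 250 bases before the annotated start, from RefSeq (GRCm38.p6), and run 5′ to 3′ toward the gene. Capitals mark GAANNTTC, an inverted pair of the GAA unit, which reads the same on both strands.
Hspa1a: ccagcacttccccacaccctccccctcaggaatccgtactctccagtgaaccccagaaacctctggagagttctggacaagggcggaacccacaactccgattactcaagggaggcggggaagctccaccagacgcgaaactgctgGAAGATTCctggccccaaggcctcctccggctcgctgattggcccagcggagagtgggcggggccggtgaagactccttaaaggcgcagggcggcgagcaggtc
Hspa1b: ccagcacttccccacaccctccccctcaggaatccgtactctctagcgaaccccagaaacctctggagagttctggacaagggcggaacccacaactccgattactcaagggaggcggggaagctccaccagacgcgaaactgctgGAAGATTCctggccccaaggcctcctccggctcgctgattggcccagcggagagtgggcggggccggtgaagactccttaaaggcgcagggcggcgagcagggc
Hspb1: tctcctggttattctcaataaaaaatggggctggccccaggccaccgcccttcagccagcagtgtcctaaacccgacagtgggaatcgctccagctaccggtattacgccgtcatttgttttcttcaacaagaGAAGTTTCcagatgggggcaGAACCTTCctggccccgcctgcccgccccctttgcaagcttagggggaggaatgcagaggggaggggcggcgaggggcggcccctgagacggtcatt
Hspb7: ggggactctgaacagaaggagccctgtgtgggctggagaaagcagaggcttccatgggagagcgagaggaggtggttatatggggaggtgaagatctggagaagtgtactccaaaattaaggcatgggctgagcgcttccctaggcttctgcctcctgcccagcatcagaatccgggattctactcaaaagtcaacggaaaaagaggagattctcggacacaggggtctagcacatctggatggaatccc
The positions are chr17:34972157-34972406, minus strand for Hspa1a, chr17:34959239-34959488, minus strand for Hspa1b, chr5:135887669-135887918, plus strand for Hspb1, and chr4:141420529-141420778, plus strand for Hspb7. RefSeq windows of 300 bases (250 before the start and 50 after it) were found for 9 of the 10 members and not for Cryab. GAANNTTC stood in 7.86% of all 32851 such windows, TTCNNGAA in 8.52%, and at least 1 of them in 15.1%. In Hspa1a and Hspa1b the match began 104 bases before the start, and the windows of this gene pair were identical at 296 of 300 positions. Hspb1 had a match that began 117 bases and another that began 97 bases before the start. Hspb8 and Bag3 had GAANNTTC after the start, Hsph1 had TTCNNGAA before its starts and overlapping matches to both motifs after them, and Hspb6 had GAANNTTC before its second start. The windows of Hspb7 and Dnajb1 held neither, which says only that these letters are not in these windows.

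The genes lie apart on the genome except for the Hsp70 pair. Hspa1a (chr17:34969190-34972156) and Hspa1b (chr17:34956436-34959238) are neighbours on the minus strand of chromosome 17 in GENCODE M21 (GRCm38). Of the 31-base words in the exons of Hspa1a, 63.8% also stood in Hspa1b, so reads could be divided between the copies. Their CPM ratio (Hspa1b to Hspa1a) was 0.789 to 1.1 over the 16 libraries, and a sum of both is used below. The counts of members below take them as separate genes, though their values are not independent. Hspb1 (chr5:135887919-135889563) shared 52.3% of its words with the pseudogene Hsp25-ps1, so its reads could be divided as well. Cryab (chr9:50751325-50756636) overlaps Hspb2 on the opposite strand, and Hspb6 (chr7:30552178-30555443) overlaps Proser3 on the opposite strand. Exons of Hspa1a also overlap Gm20481 on the opposite strand. Whether the counting used strand is not given in the sources used here, so part of the counts of Cryab, Hspb6, and Hspa1a may come from the partner on the other strand. Hspb7 (chr4:141420779-141425311) shared 1.11% of its words and Dnajb1 (chr8:83608193-83612653) 0.444%. Hspb8 (chr5:116408491-116422864), Hsph1 (chr5:149614287-149636376), and Bag3 (chr7:128523616-128546981) complete the set.

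Per length, the small heat shock proteins were the abundant members in tumor-bearing mice. In CAC, the FPKM values (scaled to gene length and library total, mean ± SD, n = 4) were 723.6 ± 176.5 for Hspb6, 537.1 ± 152.8 for Hspb7, 474.8 ± 80.1 for Hspb1, 392.7 ± 169.9 for Cryab, and 237.4 ± 61.4 for Hspb8. Each of these overlapped its neighbour in that order within 1 SD. The Hsp70 system lay below them, with 73.4 ± 4.03 for Bag3, 34.9 ± 6.29 for Hsph1, 19.2 ± 7.82 for Hspa1a, 18.6 ± 6.85 for Hspa1b, and 8.02 ± 2.0 FPKM for Dnajb1, where only Hspa1a and Hspa1b overlapped. In NOR the order was another one, since Hspa1b had 427.1 ± 481.9 and Hspa1a 373.3 ± 420.4 FPKM, between Hspb6 (574.8 ± 70.9) and Hspb8 (316.5 ± 71.7). These means came from mice of very unlike level. In NOR replicates 3 and 4 the mean FPKM was 965.7 for Hspb1, 844.0 for Hspa1b, and 736.7 for Hspa1a, and in NOR replicates 1 and 2 it was 257.2, 10.1, and 9.98.

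The largest difference in the heat shock genes lay within the NOR group. Hspa1a was 29.9, 32.4, 2316.0, and 2081.9 CPM in NOR replicates 1 to 4, and 15 to 287.9 CPM in the 12 tumor-bearing mice. Hspa1b was 23.6, 35.6, 2476.0, and 2283.4 CPM in NOR and 14.7 to 309.6 CPM in the others. NOR replicates 3 and 4 were thus high in both Hsp70 genes, and replicates 1 and 2 were within the range of the tumor-bearing mice. Dnajb1 was 13.5, 24.9, 205.2, and 200.6 CPM in NOR and 17.1 to 30.4 CPM elsewhere. Hspb1 was 269.2, 231.5, 829.7, and 948.7 CPM in NOR and 128.2 to 519.9 CPM elsewhere. The same mice were again above all others. The ratio of the means of NOR replicates 3 and 4 to replicates 1 and 2 was 80.4 for Hspa1b, 70.5 for Hspa1a, 10.6 for Dnajb1, 3.55 for Hspb1, 1.77 for Bag3, 1.39 for Hspb8, 1.37 for Cryab, and 1.17 for Hsph1. It was below 1 for Hspb7 (0.834) and Hspb6 (0.806), so the high level in these mice was not shared by the whole family.

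In all, 7 of the 10 members (all 5 of the Hsp70 system, with Hspb1 and Hspb8) were higher in NOR replicates 3 and 4 than in each of the other 14 libraries. Of all 13210 genes, 78 (0.59%) were. These 2 mice were singled out after their values were seen, so the counts are a description without a test. For Hspb8, Hsph1, and Bag3 the gap was small. Hspb8 was 529.1, 459.7, 736.9, and 639.2 CPM in NOR against at most 581.9 elsewhere, Hsph1 was 80.5, 72.9, 90.3, and 89.3 CPM against at most 86.0, and Bag3 was 215.7, 167.9, 340.3, and 340.5 CPM against at most 258.7. By the ratio of the lower of these mice to the highest of the other 14, Hspa1b ranked 3rd (7.38), Hspa1a 4th (7.23), and Dnajb1 5th (6.59) of all genes, Hspb1 16th (1.6), Bag3 20th (1.32), Hspb8 31st (1.1), and Hsph1 53rd (1.04). Of the other genes of the chaperone and stress pathways, 7 of the 79 with at least 1 CPM were above all 14. These were Hsp90aa1, the inducible Hsp90 (301.2 and 309.7 CPM against at most 88.8), Dnaja1 (185.3 and 171.5 against at most 83.0), Dnajb4, Hspa8, the mitochondrial chaperonin Hspd1, and the immediate early genes Fos and Atf3. The heat shock factors Hsf1, Hsf2, and Hsf4 and the factor-binding protein Hsbp1 had no gene above all 14. Nor had the 7 measured CCT chaperonin genes or the 8 other BAG proteins and Hsp70 adaptors.

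**Figure D1:**
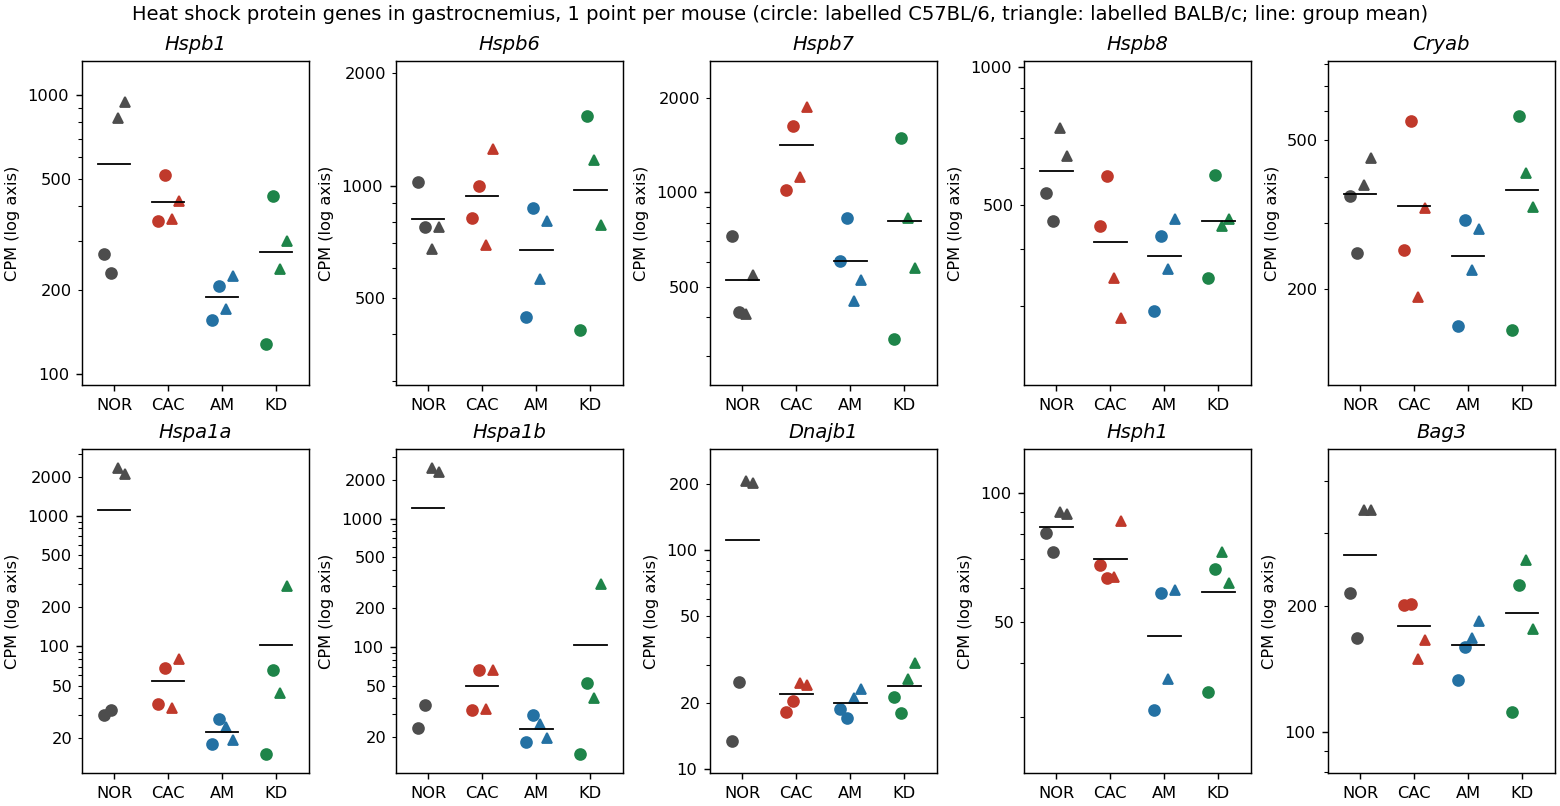
CPM (log axis) of the 10 heat shock genes in each mouse, by group, with circles for mice labelled C57BL/6, triangles for mice labelled BALB/c, and a line at the group mean. NOR replicates 3 and 4 lie far above all other mice in Hspa1a, Hspa1b, and Dnajb1, and the CAC mice lie above the NOR mice in Hspb7.

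**Figure D2:**
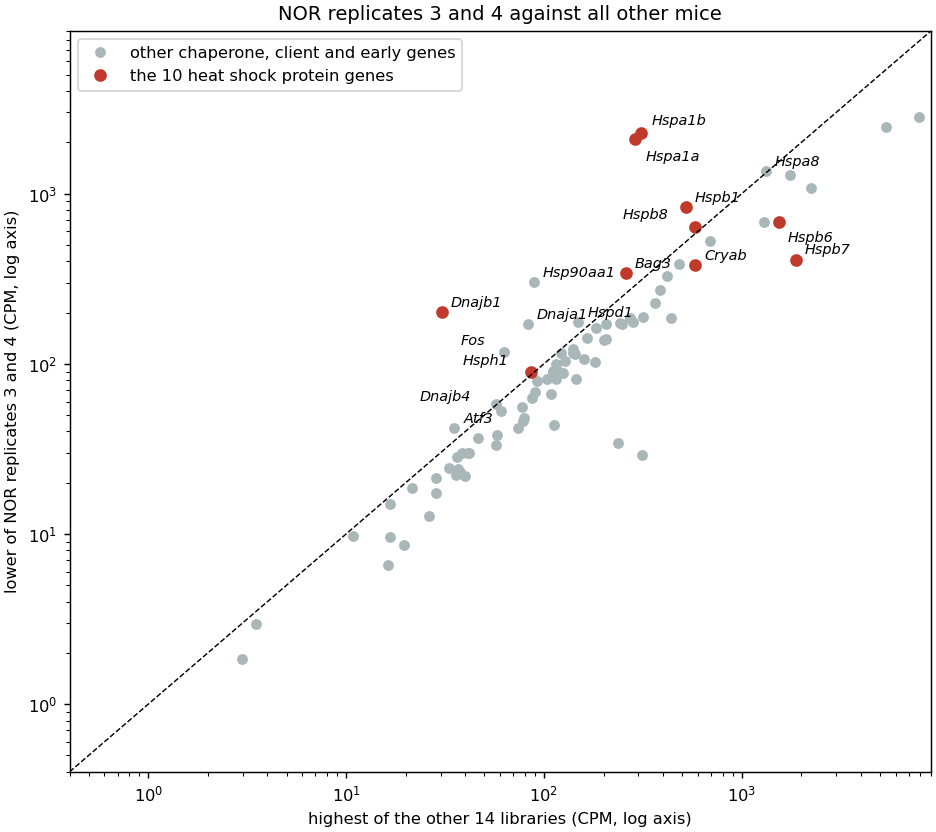
The lower CPM of NOR replicates 3 and 4 (log axis) against the highest CPM of the other 14 libraries (log axis), 1 point per gene, with the 10 heat shock genes in red, the pathway genes in grey, and a dashed line where both are equal. Hspa1b, Hspa1a, Dnajb1, and Hsp90aa1 lie farthest above the line, and Hspb6, Hspb7, and Cryab lie below it.

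CAC vs. NOR asks how the tumors changed these genes, and 1 member, Hspb7, rose. Hspb7, a small heat shock protein of heart and skeletal muscle that binds filamin, was 727.8, 416.2, 409.5, and 544.8 CPM in NOR replicates 1 to 4. It was 1019.2, 1632.9, 1120.5, and 1871.4 CPM in CAC. Every CAC mouse was above every NOR mouse, which was so for 12.3% of all genes. The means were 524.6 ± 149.1 in NOR and 1411.0 ± 407.9 CPM in CAC (SD, n = 4). The quasi-likelihood test of edgeR gave a log2 fold change of 1.42 (SE 0.276) with an adjusted p of 0.0146. Of all 14666 genes tested 9.45% were called, that is, had an adjusted p of at most 0.05 and a change of at least 1.5-fold, with 4.32% called higher and 5.13% called lower. The call was lost without NOR replicate 3 (1.31, adjusted p = 0.0513, with 4.91% of all genes called), without both NOR mice labelled BALB/c (1.27, adjusted p = 0.123, with 2.38% of all genes called), and within either labelled strain (1.22 for C57BL/6 and 1.67 for BALB/c, adjusted p = 0.166 and 0.15), where 1.69% and 0.0% of all genes were called. It held without CAC replicate 4, the only library high in Nnt here (1.25, adjusted p = 0.0293). In this bulk tissue, a larger share of the cells that express Hspb7 and more of its RNA per cell cannot be told apart.

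The other 4 small heat shock proteins did not pass the test in CAC vs. NOR. CAC replicates 1 to 4 had 353.7, 519.9, 361.8, and 418.6 CPM of Hspb1, which binds actin, and these values lay between the low and the high pair of NOR mice (log2 fold change -0.46, adjusted p = 0.561). Hspb8, the partner of Bag3, was 448.9, 578.4, 346.0, and 281.9 CPM in CAC (-0.52, adjusted p = 0.192). Hspb6, also called Hsp20, was 1025.1, 775.7, 678.6, and 773.2 CPM in NOR and 818.5, 1000.4, 691.5, and 1250.5 CPM in CAC. The Hspb6 groups overlapped over most of their range (0.20, adjusted p = 0.608). Cryab, or alpha B-crystallin, which binds desmin, was 354.6, 250.7, 379.1, and 449.3 CPM in NOR and 255.1, 563.2, 190.2, and 330.2 CPM in CAC, and the NOR range lay inside that of CAC (-0.11, adjusted p = 0.874). Some of these directions turned with the NOR mice used. In the mice labelled C57BL/6 alone Hspb1 was 0.81, Hspb8 0.06, and Cryab 0.44, and without both NOR mice labelled BALB/c Hspb1 was 0.70 and Cryab 0.11, with none called.

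The Hsp70 genes gave large fold changes in CAC vs. NOR that did not pass the test and that rested on NOR replicates 3 and 4. Hspa1a was 35.9, 67.9, 33.8, and 79.9 CPM in CAC, and Hspa1b was 32.7, 66.7, 32.8, and 66.7 CPM. These lie far below NOR replicates 3 and 4, and near or above NOR replicates 1 and 2. The log2 fold change was -4.34 (SE 1.4, adjusted p = 0.0741) for Hspa1a, -4.58 (SE 1.44, adjusted p = 0.0695) for Hspa1b, and -2.32 (SE 0.805, adjusted p = 0.0927) for Dnajb1. Some other fits of the same 8 libraries, though not all, gave smaller changes. These were -2.31, -2.42, and -1.48 in limma-voom and -2.29, -2.43, and -1.53 with the labelled strain as a covariate. Without both NOR mice labelled BALB/c the log2 fold change turned to 0.78, 0.73, and 0.18, and with replicates 1 and 2 alone to 0.74, 0.75, and 0.02. Dnajb1 in CAC was 18.2, 20.6, 24.7, and 24.3 CPM, within the range of NOR replicates 1 and 2. The sum of Hspa1a and Hspa1b was 53.5, 68.0, 4792.0, and 4365.3 CPM in NOR and 68.6, 134.6, 66.6, and 146.7 CPM in CAC, with p = 0.4 in a two-sided exact permutation test (adjusted p = 0.6 over 3 comparisons, smallest possible p 0.0286). Bag3 was 201.5, 202.5, 149.3, and 166.1 CPM in CAC (-0.57, adjusted p = 0.144), and Hsph1 was 67.8, 63.2, 63.8, and 86.0 CPM (-0.25, adjusted p = 0.218). Some CAC values of both genes lay within the NOR range.

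Of the 10 members, 1 was called higher and 0 lower in CAC vs. NOR, and 4 were lower at an unadjusted p under 0.05, against 13.6% of all genes. The median log2 fold change of the members was -0.49 and that of all genes 0.01. DESeq2 called 4 members (Hspb7, Hspa1a, Hspa1b, and Dnajb1) and 11.2% of all genes, and limma-voom called Hspb7 and 9.91% of all genes. These 4 members were also called with edgeR when all 16 libraries set the spread (7.91% of all genes) and when NOR replicate 1 was left out (7.0%). The change in the mice labelled BALB/c minus that in the mice labelled C57BL/6 was -5.95 (SE 0.667) for Hspa1a, -6.27 for Hspa1b, -3.0 for Dnajb1, and -1.92 (SE 0.321) for Hspb1 on the log2 scale. Hspb8 and Bag3 also had an unadjusted p under 0.05. None of these 6 passed the adjustment in edgeR (lowest adjusted p 0.18), as was so for all genes (0.0%), limma-voom called 0, and DESeq2 called 6 members, against 0.68% of all genes.

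Markers of several other cell types moved in the same comparison. All 5 erythrocyte markers were called higher in CAC than in NOR, with sums of 1002.4 to 1374.4 CPM in NOR and 3646.3 to 8714.2 CPM in CAC. Of 8 neutrophil markers, 3 were called higher (4.51 to 38.3 against 108.5 to 235.9 CPM). Of 6 fibroblast markers, 3 were called lower (2973.2 to 3900.2 against 868.3 to 1441.3 CPM), as were 2 of 5 tendon markers (593.3 to 945.4 against 179.2 to 436.1 CPM). Of 7 endothelium markers 2 were called higher (1017.7 to 1481.9 against 1241.5 to 1712.0 CPM), and of 11 fast fibre markers 1 was called lower (110387.0 to 155284.9 against 61634.2 to 132883.1 CPM). No marker of erythrocytes, fibroblasts, or tendon was at 0 in any library. Across the 16 libraries, which share these groups, the log2 level of Hspb7 and the log2 fibroblast sum had a Pearson's r of -0.79, and r was -0.63 with the tendon, 0.54 with the endothelium, and 0.53 with the erythrocyte sum. The part of these tissues in the rise of Hspb7 was not tested.

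**Figure D3:**
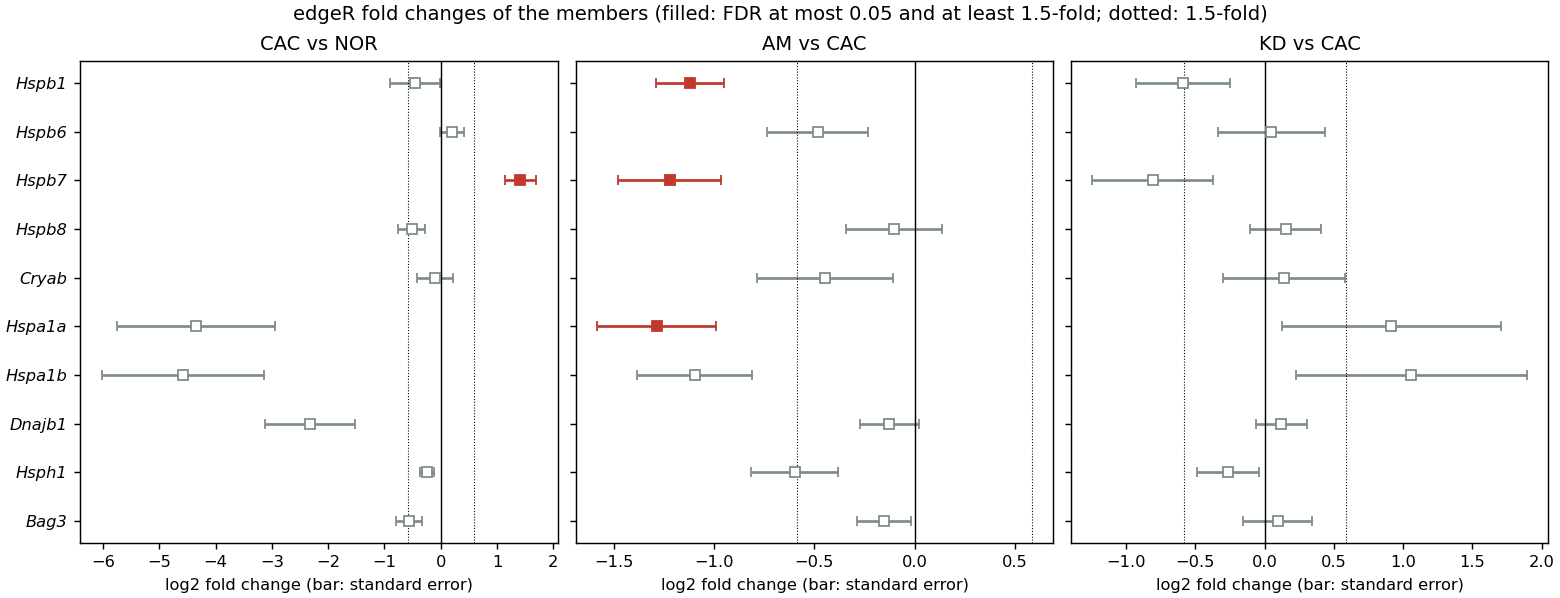
Log2 fold change of each heat shock gene with its standard error for CAC against NOR and for AM and KD against CAC. Filled marks were called and dotted lines stand at 1.5-fold. The filled marks are Hspb7 in the first comparison and Hspb1, Hspb7, and Hspa1a in the second.

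AM vs. CAC asks how amiloride changed these genes in tumor-bearing mice, and 3 of 10 members fell by edgeR with TMM scaling. Of these, Hspa1a was not called with RLE or upper-quartile scaling, without the filter, or with limma-voom, and the fall of Hspb1 and Hspb7 was called in all 4. The comparison uses the same CAC libraries as CAC vs. NOR, so their values enter both. Hspb1 was 156.2, 206.7, 171.8, and 224.6 CPM in AM, with a mean of 189.8 ± 31.4 against 413.5 ± 76.6 in CAC (log2 fold change -1.12, SE 0.169, adjusted p = 0.012). Hspb7 was 605.4, 830.7, 450.4, and 525.1 CPM in AM, with a mean of 602.9 ± 164.5 (-1.22, SE 0.258, adjusted p = 0.0352). Every AM mouse was below every CAC mouse in both, and the AM mice overlapped the NOR range of Hspb7. Hspa1a was 17.7, 27.8, 24.2, and 19.3 CPM in AM (-1.29, SE 0.295, adjusted p = 0.0452). Of all 14674 genes tested 3.66% were called and 2.03% were called lower.

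The other 7 members did not pass the test in AM vs. CAC. Hspa1b was 18.2, 29.8, 25.4, and 19.5 CPM in AM (-1.10, adjusted p = 0.0657), and Hsph1 was 31.1, 58.3, 36.7, and 59.2 CPM (-0.60, adjusted p = 0.156). Both were below every CAC mouse, which makes 5 of 10 members lower in AM without overlap, against 9.48% of all genes. These 5 include both Hspa1a and Hspa1b. With that pair summed into 1 gene, edgeR called Hspb1 and Hspb7 and not the pair (3.66% of all genes). Hspb6 was 445.8, 873.2, 561.6, and 803.4 CPM in AM (-0.48, adjusted p = 0.315) and Cryab was 159.3, 306.0, 225.6, and 290.0 CPM (-0.45, adjusted p = 0.5). Both overlapped CAC. Hspb8 was 291.6, 425.8, 360.6, and 465.0 CPM (-0.10, adjusted p = 0.854), Bag3 was 133.3, 159.8, 168.2, and 184.3 CPM (-0.15, adjusted p = 0.566), and Dnajb1 was 18.9, 17.1, 21.2, and 23.2 CPM (-0.13, adjusted p = 0.684). These 3 genes had the smallest changes, and their groups overlapped. In the mice labelled BALB/c both AM mice were above both CAC mice in Hspb8 (0.36) and in Bag3 (0.14), and Hspb8 was also above 0 without CAC replicate 2 (0.11) and without AM replicate 1 (0.01). With all 8 libraries the fold change was below 0 for all 10 members, with a median of -0.54 against 0.01 for all genes. DESeq2 called 4 members (Hspb1, Hspb7, Hspa1a, and Hspa1b) and 6.38% of all genes, and limma-voom called Hspb1 and Hspb7 and 3.77% of all genes. The summed Hspa1a and Hspa1b level was 35.8, 57.6, 49.6, and 38.9 CPM in AM, a log2 ratio of -1.20 to CAC (exact permutation p = 0.0286, the smallest possible, adjusted p = 0.0857 over 3 comparisons).

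The AM calls depended on the fit and on the libraries. With RLE factors 3.46%, with upper-quartile factors 3.48%, and without the filter 2.47% of all genes were called. With the labelled strain as a covariate only Hspb1 was called (2.31% of all genes). With the replicate number as a block 0 members were called (0.0% of all genes). When all 16 libraries set the spread 0 members were called (1.52% of all genes), with an adjusted p of 0.159 for Hspb1, and within either labelled strain 0 members were called (0.0% in both). Hspb1 was called whichever library of the 8 was left out (adjusted p 0.0244 to 0.0444). Hspb7 was not called without CAC replicate 1, 2, or 4 or AM replicate 1, 3, or 4 (adjusted p 0.0518 to 0.102), and Hspa1a was called only without CAC replicate 3 (adjusted p 0.0425, and 0.0562 to 0.119 without any other). Without CAC replicate 4 and AM replicates 1 and 3, which were high in Nnt, 0 of 10 members and 0.0% of 14936 genes were called with edgeR. The fold changes then were -0.95 for Hspb1 (adjusted p = 0.153), -0.91 for Hspb7 (adjusted p = 0.264), and -0.98 for Hspa1a (adjusted p = 0.283). The ratio of the Hsp70 sum was -0.90 (exact permutation p = 0.3), where too few mice were left for this test to reach 0.05. The sum was 57.6 and 38.9 CPM in the AM mice left and 68.6, 134.6, and 66.6 CPM in the CAC mice left. Of the libraries high in Nnt, 1 is in CAC and 2 are in AM. In the same comparison 3 of 6 fibroblast markers (2183.1 to 3290.8 CPM in AM) and 2 of 5 tendon markers (483.6 to 733.6 CPM) were called higher in AM, as was 1 of 11 fast fibre markers (97074.5 to 128462.1 CPM), and none of 5 erythrocyte or 8 neutrophil markers was called. Their part in the fall of the heat shock genes was not tested.

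KD vs. CAC asks what tumors grown from Rab27 knock-down cells changed, and 0 of 10 members passed the test in edgeR. At an unadjusted p under 0.05 the count was also 0, against 6.06% of all genes higher and 5.09% lower, and DESeq2 and limma-voom called 0 members, against 1.85% and 0.0% of all genes. Of all 14593 genes 1 (0.00685%) was called. The KD mice were spread widely. Hspb7 was 340.8, 1487.0, 830.3, and 575.8 CPM in KD (log2 fold change to CAC -0.81, SE 0.437, adjusted p = 0.542). Hspb1 was 128.2, 435.2, 238.0, and 299.6 CPM (-0.59, adjusted p = 0.563). In both genes KD replicate 2 lay within the CAC range and KD replicate 1 was the lowest mouse of the study. Hspb6 was 409.7, 1540.1, 1171.2, and 783.7 CPM (0.05, adjusted p = 0.986), and Cryab was 155.5, 581.3, 408.2, and 332.4 CPM (0.14, adjusted p = 0.96). KD replicate 2 was the highest mouse of all 16 in both, and KD replicate 1 the lowest. Summed slow fibre markers were 2008.5, 8358.6, 5739.5, and 2855.2 CPM in KD replicates 1 to 4, in the same order as Hspb6, and over all 16 libraries their log2 level had an r of 0.69 with Hspb6. Markers of other cell types also differed between the KD mice. Lymphocyte markers summed to 378.6, 6.41, 2.2, and 140.5 CPM (r with Hspb6 -0.71) and fibroblast markers to 3552.5, 1041.8, 850.9, and 4034.2 CPM (r -0.52), and smooth muscle and pericyte markers had an r of 0.64. The part of fibre type and of these cell types in the levels was not tested. Without CAC replicate 4 and KD replicate 1, which were high in Nnt, 0 members were called (0.0% of all genes), with changes of -0.38 for Hspb7, -0.34 for Hspb1, 0.48 for Hspb6, and 0.40 for Cryab.

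Hspa1a was 15, 65.4, 43.9, and 287.9 CPM in KD, and Hspa1b was 14.7, 52.8, 39.9, and 309.6 CPM. KD replicate 4 stood above every other tumor-bearing mouse in both. The log2 fold change to CAC was 0.92 (adjusted p = 0.741) for Hspa1a and 1.06 (adjusted p = 0.706) for Hspa1b, and without KD replicate 4 it turned to -0.38 and -0.46. The Hsp70 sum was 29.6, 118.3, 83.8, and 597.5 CPM (ratio to CAC 0.99 on the log2 scale, exact permutation p = 0.8). Dnajb1 was 21.4, 18.1, 25.9, and 30.4 CPM in KD (0.12, adjusted p = 0.881), and Hspb8 was 345.7, 581.9, 448.6, and 466.0 CPM (0.15, adjusted p = 0.902). Bag3 was 111.5, 225.6, 258.7, and 176.4 CPM (0.10, adjusted p = 0.951), and Hsph1 was 34.3, 66.3, 72.7, and 61.6 CPM (-0.26, adjusted p = 0.738). The KD and CAC ranges of these 4 genes overlapped.

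AM and KD were also set against NOR and against each other, and edgeR called 0 members in each, as it called 0.0% of all genes. In AM vs. NOR, 8 of 10 members were lower at an unadjusted p under 0.05, against 4.13% of all genes, and DESeq2 called 4 members (0.44% of all genes) while limma-voom called 0 (0.0%). Hspb1 (-1.57, SE 0.451, adjusted p = 0.518), Hspa1a, and Hsph1 (-0.84, SE 0.205) were lower in every AM mouse than in every NOR mouse, against 2.71% of all genes. The gaps were narrow for Hspb1 and Hspa1a. The highest AM and lowest NOR mouse had 224.6 and 231.5 CPM of Hspb1, 27.8 and 29.9 of Hspa1a, and 59.2 and 72.9 of Hsph1. Hspb7 gave 0.20 in AM vs. NOR (adjusted p = 0.819). Without NOR replicates 3 and 4, 2 of 10 members, Hspa1a and Hsph1, were lower at an unadjusted p under 0.05, with changes of -0.49 for Hspa1a, -0.74 for Hsph1, -0.41 for Hspb1, and 0.07 for Dnajb1, against 3.88% of all genes. Without AM replicates 1 and 3, which were high in Nnt, 3 of 10 members (Hspa1a, Hspa1b, and Hsph1) were lower at an unadjusted p under 0.05, against 1.73% of all genes, with -1.40 for Hspb1 and -0.50 for Hsph1. Within the label BALB/c there were 2 mice a side, and NOR was replicates 3 and 4, singled out for their high values. There edgeR called 3 of 14927 genes (0.0201%), which were Hspa1a, Hspa1b, and Dnajb1, so these calls restate that choice. Within the label C57BL/6 edgeR called 0 (0.0%). In KD vs. NOR 2 members were lower at an unadjusted p under 0.05, against 1.38% of all genes, and Hsph1 was lower in every KD mouse than in every NOR mouse (-0.50, SE 0.216), against 0.929% of all genes, with 72.7 CPM in the highest KD and 72.9 in the lowest NOR mouse. Without NOR replicates 3 and 4 the count in KD vs. NOR was 0 of 10 (1.23% of all genes), and without KD replicate 1, which was high in Nnt, it was 1 of 10 (Hsph1, -0.32, against 2.37% of all genes). In this last edgeR fit Hspb7 was higher in KD than in NOR (0.88, unadjusted p = 0.0382, adjusted p = 0.758). DESeq2 and limma-voom called 0 members in KD vs. NOR (0.214% and 0.0% of all genes). In AM vs. KD, Hspa1a and Hspa1b were lower in AM at an unadjusted p under 0.05 (0.576% of all genes), with log2 fold changes of -2.20 and -2.15. Without KD replicate 4 these were -0.90 and -0.62 and 0 members were lower at an unadjusted p under 0.05 (0.657% of all genes), without KD replicate 1 the count was 6 (3.07% of all genes), and without all 3 libraries high in Nnt it was 1 (Hspa1a, -2.49, against 0.973% of all genes). In AM vs. KD, DESeq2 and limma-voom called 0 members (0.00563% and 0.0% of all genes).

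Many members varied together from mouse to mouse, which is given as a description over libraries that share groups. Over all 16 libraries, r of log2 CPM was 1.00 for Hspa1a with Hspa1b and 0.91 for Hspa1a with Dnajb1. Without NOR replicates 3 and 4 these were 0.99 and 0.45, so most of the second relation lay in those mice. Hspb6 with Cryab gave 0.81 and, over 14 libraries, 0.89, Bag3 with Hspb8 gave 0.82 and 0.70, and Bag3 with Cryab gave 0.75 and 0.82. Hspb6 with Hsph1 gave 0.70 and 0.85, Hspb6 with Bag3 gave 0.46 and 0.82, Hspb6 with Hspb1 gave 0.43 and 0.76, and Hspb1 with Hsph1 gave 0.77 and 0.73. Hspb1 followed Dnajb1 over 16 libraries (0.72) and not over 14 (0.05), where it followed Hspb7 (0.87, and 0.32 over 16). Hspb1 with Hspa1a gave 0.85 over 16 and 0.65 over 14 libraries.

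**Figure D4:**
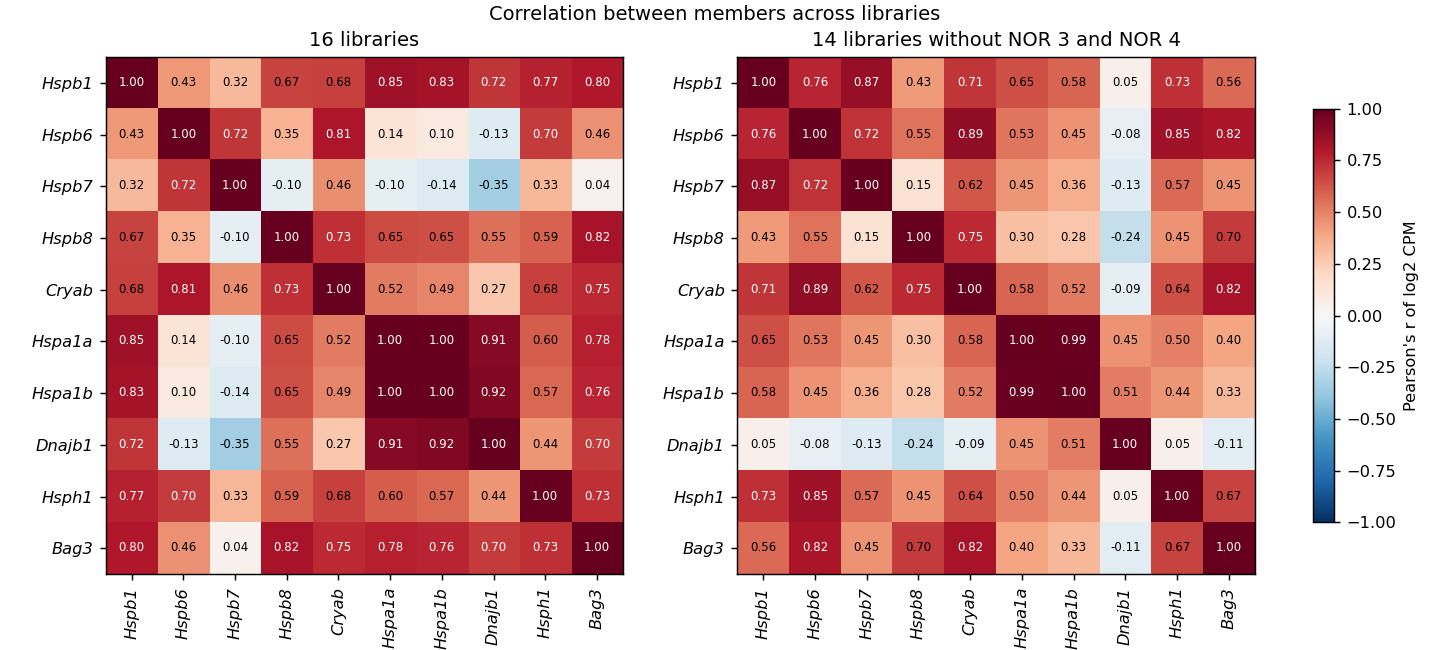
Pearson's r of log2 CPM between the 10 heat shock genes over all 16 libraries and over the 14 without NOR replicates 3 and 4. Hspb1 and Dnajb1 go from 0.72 to 0.05, and Hspb1 and Hspb7 from 0.32 to 0.87.

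Of all other genes of at least 1 CPM, those with the pattern most like the mean of the 5 small heat shock proteins over 16 libraries were 2310002L09Rik (r = 0.91), Abhd16a (0.90), Dnaja4 (0.89), Camk2n1 (0.88), and Egln2 (0.88). Dnaja4 is a J-domain partner of Hsp70. For the Hsp70 system they were Gm10382 (0.93), Dnaja1 (0.90), Mmp10 (0.89), Gm9817 (0.88), and Hspd1 (0.87), a list that includes another J-domain protein and the mitochondrial chaperonin. Without NOR replicates 3 and 4 the genes nearest to the Hsp70 system were Slc25a33 (0.84), Wee1 (0.83), Cys1 (0.82), Mdm2 (0.82), and Timp3 (0.81), none of which was on the first list. For the small heat shock proteins, the genes nearest were then Mrps34 (0.96), Egln2 (0.94), Abhd16a (0.92), Mpp6 (0.92), and Nabp2 (0.92), so Egln2 and Abhd16a were on both lists and Dnaja4 was on the first alone.

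Some partners of these chaperones at the Z-disc rose in CAC and fell in AM. Of 8 Z-disc and autophagy genes, 3 were called higher in CAC vs. NOR and 0 lower, against 4.32% and 5.13% of all genes, with a median log2 fold change of 0.73. Des (desmin, the intermediate filament around the Z-disc) went from 3039.7 to 6338.1 CPM (log2 fold change 1.05, adjusted p = 0.0117), Flnc (filamin C, a client of Bag3) from 1051.1 to 1953.1 CPM (0.88, adjusted p = 0.045), and Map1lc3b (LC3B, of the autophagosome) from 199.6 to 368.1 CPM (0.88, adjusted p = 0.00988). The same 3 genes were called lower in AM vs. CAC (2.03% of all genes), to 3334.8 ± 235.7 CPM for Des, 867.6 ± 100.2 for Flnc, and 222.6 ± 16.3 for Map1lc3b, with adjusted p of 0.0205, 0.00937, and 0.0264. Both comparisons use the same CAC mice. In KD vs. CAC none was called (Flnc -1.22, adjusted p = 0.267). Without both NOR mice labelled BALB/c the CAC vs. NOR changes were 0.96 for Des, 0.94 for Flnc, and 0.80 for Map1lc3b and were not called (adjusted p 0.102 to 0.19), and without CAC replicate 4 the call of Flnc was lost (adjusted p = 0.0855). Without the libraries high in Nnt the AM vs. CAC changes were -0.83, -1.10, and -0.62 and were not called (adjusted p 0.133 to 0.235), and without CAC replicate 4 that of Map1lc3b was lost (adjusted p = 0.0555).

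Among the heat shock factors, Hsf1 was 39.0 ± 6.32 CPM in NOR, 54.7 ± 2.03 in CAC, and 36 ± 2.29 in AM, and it was called lower in AM vs. CAC (-0.61, SE 0.0815, adjusted p = 0.00937). Hsf4 was called higher in CAC vs. NOR (0.69, adjusted p = 0.0222). Hsf2 was not called, nor was Hsbp1, a heat shock factor binding protein on the same list. In CAC vs. NOR 9.45% and in AM vs. CAC 3.66% of all genes were called. Of 14 genes of Hsp90 and its co-chaperones, Fkbp5, a glucocorticoid-induced co-chaperone, was 63.8 ± 42.9 CPM in NOR, 248.8 ± 74.4 in CAC, and 73.8 ± 14.3 in AM. It rose in CAC (1.96, adjusted p = 0.0229) and fell in AM (-1.75, adjusted p = 0.00956), and its KD mean of 74.0 ± 30.7 did not pass the test against CAC (-1.75, adjusted p = 0.231). Smyd1, a muscle methyltransferase that works with Hsp90 on myosin, went from 583.3 ± 63.9 to 287.5 ± 71.7 CPM in CAC vs. NOR (-1.03, adjusted p = 0.013). The other 12 genes of this list were not called in either comparison. Without both NOR mice labelled BALB/c, Fkbp5 was still called higher in CAC (2.29, adjusted p = 0.0282), while Smyd1 (-1.12, adjusted p = 0.0722) and Hsf4 (0.67, adjusted p = 0.126) were not. Without the libraries high in Nnt, Fkbp5 (-1.98) and Hsf1 (-0.57) were not called in AM vs. CAC (adjusted p = 0.124 for both).

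The remaining chaperone lists held few calls. In CAC vs. NOR, 1 of 3 tested other small heat shock proteins (Hspb3, -0.79, adjusted p = 0.0298), 1 of 9 other Hsp70 and Hsp110 genes (Hspa12a, -0.64, adjusted p = 0.0251), and 1 of 8 other BAG proteins and adaptors (Bag2, -1.14, adjusted p = 0.0276) were called lower, against 5.13% of all genes. None of the 9 other J-domain genes, the 7 CCT genes tested, or the 6 chaperones of the endoplasmic reticulum and mitochondria was called in CAC vs. NOR or AM vs. CAC. Dnajb6 passed the adjusted p in CAC vs. NOR (0.0204) with a change of 0.57, under the fold limit. So did Cct2 (0.45, adjusted p = 0.014), and in AM vs. CAC Cct2 (-0.43, adjusted p = 0.0397), Dnajb2 (-0.45, adjusted p = 0.0426), and Bag6 (-0.45, adjusted p = 0.0274). Where a list had no call, the gene with the lowest p is given. In CAC vs. NOR this was Hspd1 for the endoplasmic reticulum and mitochondria (-0.37, adjusted p = 0.0641). In AM vs. CAC it was Hspe1, the partner of Hspd1, for the same list (-0.52, adjusted p = 0.0691), Hspa1l for the other Hsp70 genes (-1.0, adjusted p = 0.061), and Hspb3 (0.23, adjusted p = 0.541). Of 11 immediate early genes, Egr1 (-2.11, adjusted p = 0.00191) and Fos (-2.29, adjusted p = 0.0374) fell in CAC vs. NOR, and Jun (-1.11, adjusted p = 0.019) fell in AM vs. CAC. Without both NOR mice labelled BALB/c the call of Egr1 held (-1.98, adjusted p = 0.0113), Fos (-1.23, adjusted p = 0.252), Hspb3, Hspa12a, and Bag2 (adjusted p 0.0771 to 0.123) were not called, and Jun was called higher in CAC (1.16, adjusted p = 0.0432). Without CAC replicate 4, Hspb3, Hspa12a, and Bag2 were not called (adjusted p 0.0523 to 0.0647), and without the libraries high in Nnt the call of Jun in AM vs. CAC was lost (-1.30, adjusted p = 0.128). In KD vs. CAC no gene of the 10 lists was called, and besides Flnc and Fkbp5 the genes with the lowest p were Bag2 (0.70), Egr2 (0.79), Hspa12a (0.52), Hspb3 (0.47), Hsf1 (-0.50), Hspe1 (-0.37), Dnajb2 (-0.36), and Cct4 (-0.30), with adjusted p of 0.39 to 0.558.

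**Figure D5:**
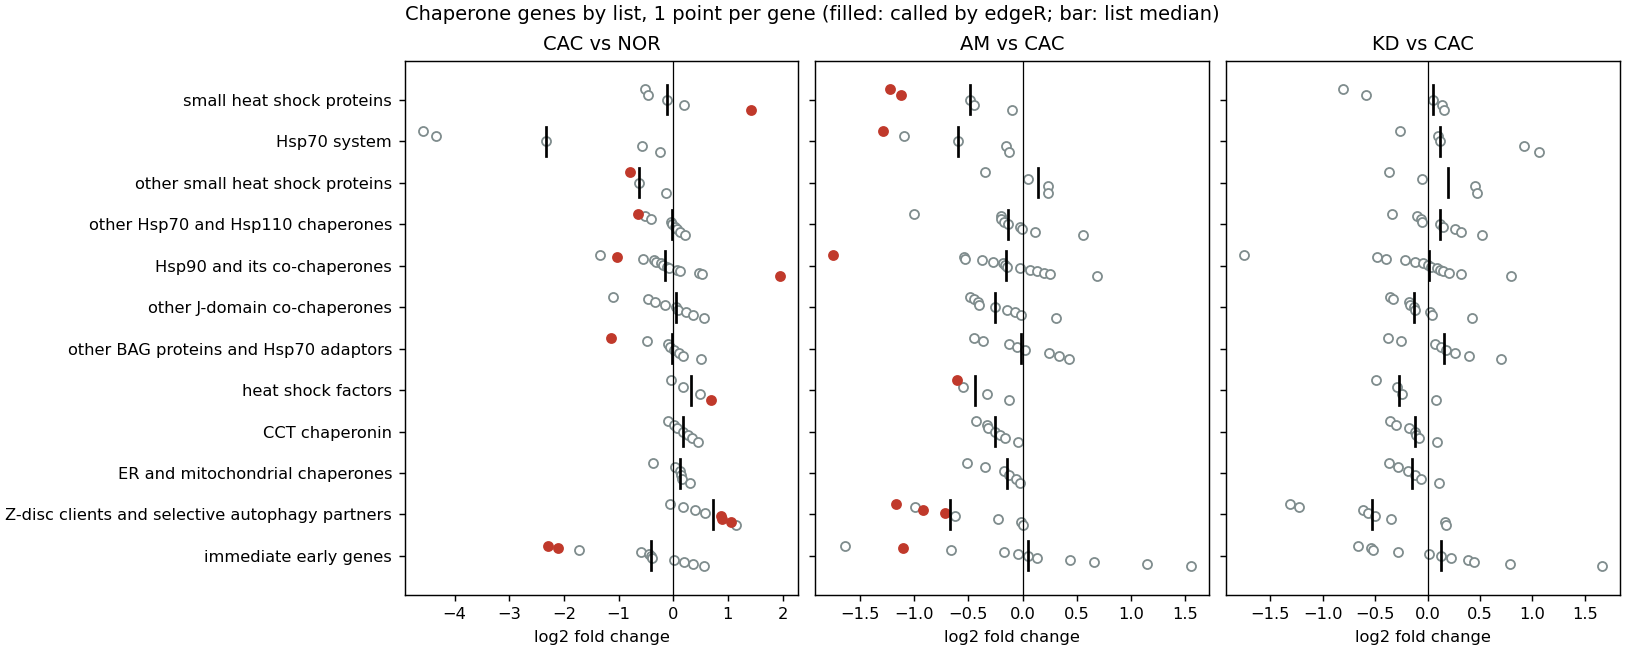
Log2 fold change of each gene, 1 point per gene, with filled points for called genes and a bar at the list median, in each chaperone list for CAC against NOR and for AM and KD against CAC. The Z-disc and autophagy list has 3 called higher in the first and 3 called lower in the second comparison, and no list has a call in the third.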

How the data were processed

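Poly(A) RNA of gastrocnemius from 16 mice was sequenced, 4 libraries each in NOR, CAC, AM, and KD. The authors deposited whole-number read counts per gene, without normalization, and FPKM values (scaled to gene length and library total), which served only for levels per length. The submitters' processing notes name fastp, Bowtie2, HISAT2, StringTie 1.3.1, mm9, and GRCm38. The counting tool's strand setting is not given in the sources used here. Each of the 32 value columns was tied to 1 mouse through its name, with 0 left over. Of 21923 identifiers, 21905 matched GENCODE M21.

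Counts were tested in R 4.3.3 with edgeR 4.0.16 (TMM scaling, filterByExpr at 10 counts and a total of 15, quasi-likelihood F test) on the 8 libraries in each pair of groups, with Benjamini-Hochberg adjustment over all genes tested. Genes called had an adjusted p of at most 0.05 and a change of at least 1.5-fold. NOISeq, which the study used, was not used here. The interaction of labelled strain and condition had no fold limit. The sum of Hspa1a and Hspa1b was compared by a two-sided exact permutation test. Log2 CPM for correlations used a prior count of 2. Depth was 35913190 to 61032708 counts per library. The lowest count of a member in a library was 520, at which counting error is small. The labels number the libraries of a group and do not say more of the mice, so p-values measure the spread between these libraries.

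DESeq2 1.42.0, limma-voom (limma 3.58.1), other scalings and filters, the replicate number as a block, the labelled strain as a covariate, each labelled strain alone, all 16 libraries in 1 fit, and leaving out each library were alternatives. Leaving out both NOR mice labelled BALB/c and leaving out the libraries high in Nnt (over 30 CPM, with Trim12a under 1 CPM) were alternatives chosen with the data in view. The members, the gene lists, and the tests were chosen with earlier results of these data known. Named are all members, up to 3 called genes of each list in each of the first 3 comparisons (otherwise the gene with the lowest p), and the 5 genes most like each pattern. NOR replicates 3 and 4, Nnt, and Trim12a were singled out after their values were seen. The scripts were tested on simulated data. Promoters came from RefSeq (GRCm38.p6), and figures were drawn with matplotlib 3.10.9 in Python 3.11.15.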

Additional observations from a re-analysis of the deposited data

Results flagged for a closer look

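Hspa1a and Hspb1 had ratios of opposite sign in the labelled strains in CAC vs. NOR, with every CAC mouse above both NOR mice of its label for C57BL/6 and below both for BALB/c. With all 8 libraries edgeR called neither gene within a label nor for the interaction, while DESeq2 called both interactions (0.68% of all genes). The NOR mice labelled BALB/c are NOR replicates 3 and 4, which were singled out for their high values. The log2 ratio of means for Hspa1a was 0.736 in mice labelled C57BL/6 and -5.273 in mice labelled BALB/c, a difference of -6.009 (edgeR interaction -5.95, unadjusted p = 7.98e-05, adjusted p = 0.185). For Hspb1 it was 0.803 and -1.188, a difference of -1.992 (interaction -1.92, unadjusted p = 0.000804, adjusted p = 0.481). In AM vs. CAC, Bag3 had ratios of -0.463 and 0.161, a difference of 0.624 (interaction 0.59, unadjusted p = 0.0158, adjusted p = 0.34). Hspb8 had ratios of -0.518 and 0.395, a difference of 0.913 (interaction 0.88, unadjusted p = 0.0505, adjusted p = 0.403). With 2 mice a side and strain labels that did not separate the libraries, what these differences follow was not tested.

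Hspa1b in KD replicate 4 was 309.6 CPM against 14.7 to 52.8 in the other KD mice, a gap of 0.871 of the range of the group. The limit used here is passed by about 1 in 20 groups by chance where values are normally distributed, and each of the 10 members was looked at in each of 4 groups.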

How the results depend on the processing

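Of 630 values of the 10 members in the first 3 comparisons under the alternatives, 540 kept their direction and their side of the threshold, 38 lost a call, 10 gained one, and 42 changed sign.

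The number of members called in CAC vs. NOR (1) was 4 with DESeq2 and with all 16 libraries, 0 within either labelled strain (1.69% of all genes called for C57BL/6 and 0.0% for BALB/c) and without both NOR mice labelled BALB/c (2.38%), and 0 to 4 with 1 library left out. In AM vs. CAC (3) it was 0 with the replicate block, with all 16 libraries, within either labelled strain, and without the libraries high in Nnt, 1 with the labelled strain as a covariate, and 1 to 3 with 1 library left out. In AM vs. NOR (0) it was 4 with DESeq2 and 3 within the label BALB/c. The interaction in CAC vs. NOR (0) gave 6 with DESeq2 and 0 to 1 with 1 library left out (Hspa1a, without CAC replicate 3, where 0.215% of all genes were called).

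The log2 ratio of the Hspa1a and Hspa1b sum in CAC vs. NOR ran from -4.884 to -3.844 with 1 library left out and was 0.777 without both NOR mice labelled BALB/c. In AM vs. CAC it ran from -1.359 to -0.984, and was -0.899 without the libraries high in Nnt. In KD vs. CAC it ran from -0.431 to 1.356.

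These fold changes changed sign. In CAC vs. NOR, the mice labelled C57BL/6 alone gave 0.805 for Hspb1, 0.057 for Hspb8, 0.437 for Cryab, 0.738 for Hspa1a, 0.749 for Hspa1b, 0.016 for Dnajb1, and 0.077 for Bag3. Without both NOR mice labelled BALB/c, Hspb1 was 0.695, Cryab 0.108, Hspa1a 0.776, Hspa1b 0.728, and Dnajb1 0.183. In AM vs. CAC, the mice labelled BALB/c alone gave 0.364 for Hspb8 and 0.136 for Bag3. In KD vs. CAC, total counts gave -0.128 for Hspb6, -0.013 for Cryab, -0.002 for Dnajb1, and -0.049 for Bag3, limma-voom -0.059 and the replicate block -0.075 for Hspb6. There the mice labelled C57BL/6 alone gave -0.121 for Hspb8, -0.126 for Cryab, -0.345 for Hspa1a, -0.534 for Hspa1b, and -0.235 for Bag3, those labelled BALB/c alone -0.016 for Hspb6, and leaving out the library high in Nnt in each group 0.044 for Hsph1. With 1 library left out, Cryab ran from -0.472 to 0.096 in CAC vs. NOR and Hspb8 from -0.249 to 0.106 for AM against CAC. For KD against CAC, Hspb6 from -0.27 to 0.302, Cryab from -0.178 to 0.509, Hspa1a from -0.381 to 1.275, Hspa1b from -0.463 to 1.423, Dnajb1 from -0.006 to 0.229, and Bag3 from -0.067 to 0.282. The cause was not tested.

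The labels do not say that mice of the same replicate number are paired. Deviations of same-numbered mice from the group means correlated at -0.237 to 0.684 in CAC vs. NOR. The r was -0.56 to 0.068 for AM against CAC and -0.702 to -0.303 for KD against CAC. With deviations from the mean of group and labelled strain, CAC vs. NOR gave 0.641 for replicates 1 and 2 and -0.054 for replicates 3 and 4. The other comparisons then gave negative values. Whether mice of the same number shared a batch was not tested. With the replicate block, edgeR called 1140 of all genes in CAC vs. NOR (1386 without it), 0 for AM against CAC (537), and 0 for KD against CAC (1). DESeq2 called 327 genes in KD vs. CAC and 1130 in AM vs. CAC. Each group holds 4 mice, and the lowest count of a member in a library was 520.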

Other observations

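Genes of the circadian clock also differed between the NOR mice. They were looked at after their values were seen, and none was above or below all of the other 14 libraries in NOR replicates 3 and 4. Per2, which closes the negative arm of the clock, was 2.74 and 6.17 CPM in NOR replicates 1 and 2 and 38.9 and 57.1 CPM in replicates 3 and 4. Per1 was 12.1 and 19.9 CPM against 60.4 and 93.0 CPM, and Dbp, a clock output gene, was 16.1 and 26.2 CPM against 204.1 and 124.6 CPM. Arntl (Bmal1), of the positive arm, was 60.0 and 42.2 CPM in replicates 1 and 2 and 8.96 and 8.63 CPM in replicates 3 and 4. Npas2 was 9.78 and 7.9 CPM against 0.524 and 0.481 CPM. The clock genes did not all split by arm. Nr1d1, of the negative arm, was 400.4 and 256.5 CPM against 325.3 and 93.2 CPM, and Bhlhe41 was 69.0 and 46.7 CPM against 95.7 and 60.8 CPM. In the 14 other libraries together Per2 ranged from 2.74 to 86.7 CPM (median 32.2) and Arntl from 4.71 to 60.0 CPM (median 22.8). The medians were 96.3 CPM for Per1, 2.83 for Npas2, and 48.5 for Dbp. NOR replicate 1 was the lowest of these 14 in Per1 and Per2 and the highest in Arntl and Npas2. In Dbp, NOR replicate 3 was above the highest of the 14 (196.8 CPM). The hour at which each muscle was taken is not given in the sources used here.

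The genes with the widest gap between NOR replicates 3 and 4 and the other 14 libraries were not all chaperones. The activity-induced transcription factor Npas4 ranked 1st (19.9 and 20.1 CPM against at most 0.679) and the matrix metalloproteinase Mmp10 ranked 2nd (8.25 and 13.2 CPM against at most 0.936). Phlda1 ranked 8th, with 43.6 and 41.0 CPM against at most 15.9.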
